A study of Mus musculus with 6 samples.

Results

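Lysosomes are acidified by the vacuolar proton pump (V-ATPase), and its genes were read here together with the cathepsin protease genes and the lysosomal membrane protein genes Lamp1 and Lamp2. Members were taken by symbol: every listed gene named Atp6v or Atp6ap with a suffix, Cts with 1 letter, Lamp1 or Lamp2. This gave 34 of the 14408 genes in the table, made up of 9 genes of the V1 sector, 9 of the V0 sector, 2 accessory subunits, 12 cathepsins and the 2 Lamp genes.

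The libraries came from male C57BL/6J mice that were 8 weeks old at the start and received a high-fat diet and, over the same 8 to 12 weeks, the nitric oxide synthase inhibitor L-NAME (0.5 g/L), a regimen used to model heart failure with preserved ejection fraction. The L-proline group (n = 3 libraries) had L-proline injected into the peritoneum at 300 mg/kg per day for 4 to 8 weeks. The PBS group (n = 3 libraries) had PBS. Both groups therefore carried the diet and L-NAME, and no group without them was analysed here. The labels call the tissue left ventricle and leave unstated whether the libraries are from different animals. The p-values therefore measure the spread between libraries, which may be technical.

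The pump uses ATP to move protons into the lysosome. Its V1 sector sits in the cytosol and hydrolyses ATP, its V0 sector spans the membrane and carries the protons, and accessory subunits help the complex assemble and reach its compartment. The acid lets cathepsins and other hydrolases cut their substrates, while the heavily glycosylated Lamp proteins line the inside of the membrane. Many genes of this organelle carry a motif with the core CACGTG, read by the transcription factor TFEB and its relatives, and the pump also takes part in amino acid sensing by mTORC1 on the lysosome surface.

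Promoter windows of the 4 members that passed the test are shown first, with that of Ctsd, the most abundant cathepsin, for comparison. Each window runs from 250 bases before the start of the gene to 50 bases after it (RefSeq, build GRCm38.p6, 5′ to 3′ on the strand of the gene), and capitals mark TCACGTG on either strand. The Atp6v0b window lies at chr4:117887280-117887579 on the minus strand, that of Lamp1 at chr8:13158911-13159210 on the plus strand, that of Ctsd at chr7:142387778-142388077 on the minus strand, that of Atp6ap1 at chrX:74296847-74297146 on the plus strand and that of Atp6v1e1 at chr6:120822649-120822948 on the minus strand.
Atp6v0b: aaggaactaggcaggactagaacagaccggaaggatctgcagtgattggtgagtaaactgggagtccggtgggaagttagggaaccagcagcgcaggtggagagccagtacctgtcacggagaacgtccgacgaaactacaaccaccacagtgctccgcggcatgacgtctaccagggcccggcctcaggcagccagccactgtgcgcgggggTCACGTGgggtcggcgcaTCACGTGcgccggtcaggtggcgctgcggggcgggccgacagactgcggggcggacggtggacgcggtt
Lamp1: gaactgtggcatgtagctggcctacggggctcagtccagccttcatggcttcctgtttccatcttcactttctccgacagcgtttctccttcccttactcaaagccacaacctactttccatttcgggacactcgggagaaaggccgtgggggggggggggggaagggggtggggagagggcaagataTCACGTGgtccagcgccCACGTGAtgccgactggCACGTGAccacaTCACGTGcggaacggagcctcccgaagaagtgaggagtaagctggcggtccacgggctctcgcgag
Ctsd: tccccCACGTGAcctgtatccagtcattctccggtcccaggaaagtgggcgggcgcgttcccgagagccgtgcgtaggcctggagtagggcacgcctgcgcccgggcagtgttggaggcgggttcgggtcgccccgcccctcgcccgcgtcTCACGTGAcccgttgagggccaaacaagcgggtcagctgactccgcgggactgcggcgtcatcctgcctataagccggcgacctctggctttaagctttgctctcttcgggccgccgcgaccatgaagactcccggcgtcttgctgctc
Atp6ap1: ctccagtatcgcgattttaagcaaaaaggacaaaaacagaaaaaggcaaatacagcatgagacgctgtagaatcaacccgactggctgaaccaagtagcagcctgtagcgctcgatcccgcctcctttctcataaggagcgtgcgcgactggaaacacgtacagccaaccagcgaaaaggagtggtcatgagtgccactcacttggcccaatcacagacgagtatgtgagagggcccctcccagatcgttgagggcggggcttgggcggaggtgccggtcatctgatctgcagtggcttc
Atp6v1e1: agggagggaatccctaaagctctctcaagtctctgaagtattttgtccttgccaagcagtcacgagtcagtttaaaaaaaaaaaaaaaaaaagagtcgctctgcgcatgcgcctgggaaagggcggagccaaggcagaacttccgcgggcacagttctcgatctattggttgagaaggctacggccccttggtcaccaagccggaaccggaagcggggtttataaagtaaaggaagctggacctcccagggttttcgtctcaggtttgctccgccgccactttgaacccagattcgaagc

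The Lamp1 window held 4 copies of CACGTG and those of Atp6v0b and Ctsd 2 each, whereas the Atp6ap1 and Atp6v1e1 windows held none. Windows were present in the table for 24 of the 34 members (28 windows, since some genes have several starts). The core CACGTG, searched on both strands, was found in 9 of these 28 windows, 32.1%, against 7.15% of all 32851 windows and 10.2% of the windows of genes tested for expression. TCACGTG, which contains the core, was found in 7 windows (25.0%), against 3.77% of all windows and 6.15% of the windows of tested genes. Besides Atp6v0b, Lamp1 and Ctsd these were windows of Atp6v1a, Atp6v0d1, Atp6v0e and Ctsa. Of the 7 genes with TCACGTG, 2 rose and 5 did not pass the expression test described below. Atp6ap1 rose and Atp6v1e1 fell without the motif. For comparison, 7.50% of all genes tested rose and 12.1% fell, and a link between the motif and the calls was not tested. A match is a description of these windows and not evidence of binding.

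Between 34990473 and 37498030 fragments per library were recovered from the deposited values, which are FPKM (fragment counts scaled to gene length and to the library total). Genes with a mean of at least 1 FPKM over the 6 libraries were tested with limma on log2(FPKM + 1), and "rose" or "fell" marks an adjusted p under 0.05 (Benjamini-Hochberg over 10500 genes). Of 13 cardiomyocyte markers 6 were listed, with summed FPKM of 16.8 to 19.96 in L-proline libraries and 34.8 to 36.5 in PBS libraries. Ttn, Ryr2, Myl2 and Tnni3 reached at most 0.212 FPKM, and Nkx2-5 averaged 3.34 FPKM in L-proline and 3.43 FPKM in PBS. Tnnt2 carried most of the sum and fell, to 14.5 ± 1.51 FPKM in L-proline, against 31.99 ± 0.777 FPKM in PBS (-1.09 ± 0.09, adjusted p = 0.000326). Summed FPKM of the 7 listed of 10 fibroblast markers was 2762 to 3129 in L-proline libraries and 2027 to 2075 in PBS libraries. Most of this sum was collagen RNA, with Col3a1 at 1824 FPKM in L-proline and 1226 FPKM in PBS. Col1a1, Col1a2, Col3a1 and Dpt rose, Dcn and Postn did not pass, and Pdgfra fell (5.97 ± 0.135 FPKM in L-proline and 7.84 ± 0.463 FPKM in PBS, adjusted p = 0.0215). For macrophage markers, 5 of 12 listed, the sum was 21.8 to 25.4 in L-proline libraries and 19.7 to 22.2 in PBS libraries, with Cd14, which did not pass, as its largest part and Csf1r at no more than 0.274 FPKM. Cd68, a macrophage marker that is itself a lysosomal protein, rose (5.19 ± 0.297 FPKM in L-proline and 3.17 ± 0.536 FPKM in PBS, 0.57 ± 0.11, adjusted p = 0.0101). Endothelial markers, 5 of 8 listed, summed to 0.603 to 0.652 in L-proline libraries and 0.483 to 0.655 in PBS libraries. Markers of T, NK and B cells (2 of 9 listed) and of neutrophils and mast cells (3 of 7 listed) each summed to at most 0.239 in L-proline libraries and 1.14 in PBS libraries. The near-absence of Ttn, Ryr2, Myl2 and Tnni3, and of endothelial marker RNA, goes against the label of left ventricle. In such bulk RNA fewer cells of a type and less RNA per cell cannot be told apart, and what part these differences in marker RNA had in the results below was not tested.

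Of the 34 members, 27 passed the filter on low values. L-proline libraries had higher RNA of the V0 subunit gene Atp6v0b, the accessory subunit gene Atp6ap1 and Lamp1, and lower RNA of the V1 subunit gene Atp6v1e1. The remaining 23 tested members did not pass, and they included all 8 tested cathepsins. The 4 calls are 14.8% of the 27 tested members, against 19.6% of all genes tested, so the share called in this main fit was no higher than the background. That comparison depended on the setting, as given at the end. In direction, 3 rose (7.50% of all genes tested rose) and 1 fell (12.1% of all genes tested fell). Over all genes tested 788 rose and 1268 fell, against 1003 and 966 under median-of-ratios scaling and 1079 and 1015 under quantile normalization, and the total of 2056 became 976 without PBS 1 and 874 without PBS 3. The median log2 fold change was 0.20 for the 17 tested pump genes, 0.02 for the 8 cathepsins and 0.35 for the 2 Lamp genes, while the median over all genes tested was -0.06. The groups did not overlap for 10 of the 27 members (40.1% of all genes tested): all L-proline libraries lay above all PBS libraries for 9 (16.0% of all genes tested) and below them for 1 (24.0% of all genes tested). At an unadjusted p under 0.05 with limma there were 11 members, against 35.1% of all genes tested.

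**Figure D1:**
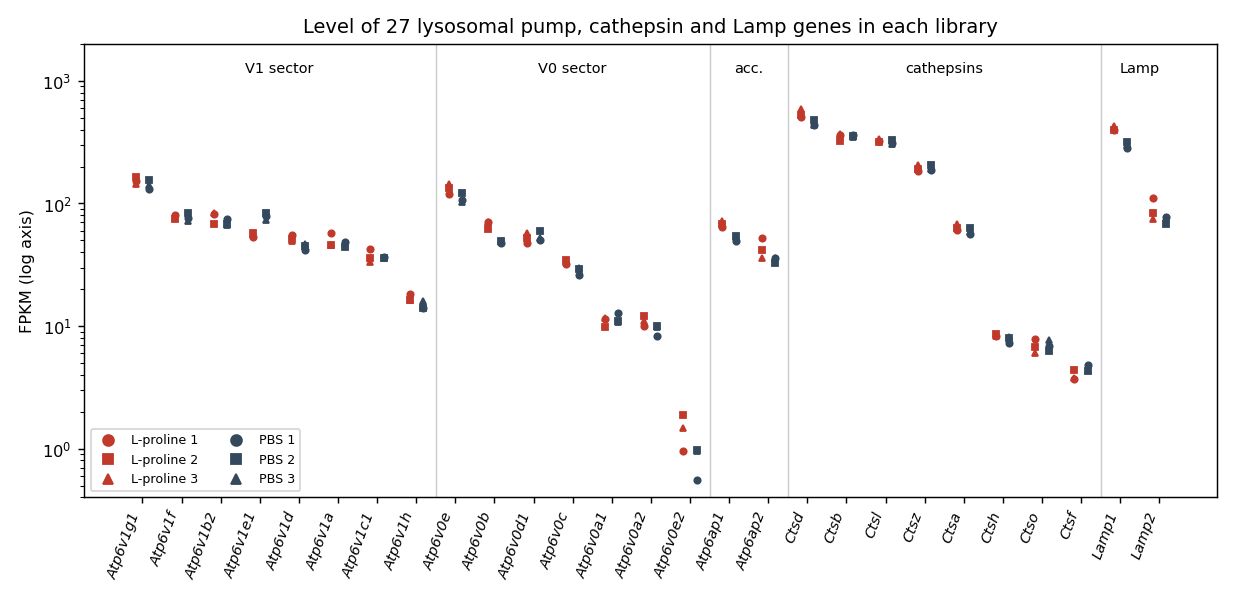
FPKM on a log axis of the 27 tested members in each of 6 libraries, ordered by level within the V1 sector, V0 sector, accessory subunits (acc.), cathepsins and Lamp genes. L-proline points (red) stand left of PBS points (dark blue), and marker shape gives the replicate number. Levels span from Atp6v0e2, near 1 FPKM, to Ctsd, at 438 FPKM or more in every library.

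Among V1 genes, which encode the ATP-hydrolysing part, Atp6v1e1 was the 1 member that passed. Its product is the E subunit of the peripheral stalks that hold the rotary motor in place. Atp6v1e1 stood at 53.4, 57.7 and 55.2 FPKM in L-proline libraries 1, 2 and 3, against 79.2, 83.0 and 73.1 FPKM in PBS libraries 1, 2 and 3. Every L-proline library lay below every PBS library, with no overlap. The means were 55.5 ± 2.18 FPKM in L-proline and 78.4 ± 4.97 FPKM in PBS (SD, n = 3 each), a log2 fold change of -0.49 ± 0.07 (SE; limma, adjusted p = 0.00382). Atp6v1e1 took 10.7 ± 0.720% of the summed V1 FPKM in L-proline libraries, against 15.4 ± 0.621% in PBS libraries.

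The other 7 tested V1 genes had positive fold changes that did not pass, although Atp6v1f turned negative under quantile normalization (-0.0025) and Atp6v1f and Atp6v1c1 did under scaling to equal sums (-0.043 and -0.013). Atp6v1g1, whose G subunit pairs with E in the same stalk, was the most abundant V1 gene at 154 ± 9.80 FPKM in L-proline and 143 ± 11.8 FPKM in PBS (log2 fold change 0.10 ± 0.08, adjusted p = 0.401). The ratio of Atp6v1e1 to Atp6v1g1 was 0.351, 0.352 and 0.382 in L-proline libraries 1, 2 and 3, against 0.5999, 0.534 and 0.517 in PBS libraries 1, 2 and 3. The ratio did not overlap between groups, which restates the lower Atp6v1e1 level, since Atp6v1g1 did not pass.

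The catalytic hexamer is built from the A and B subunits. Atp6v1a was 49.7 ± 6.61 FPKM in L-proline and 46.4 ± 2.04 FPKM in PBS (0.09 ± 0.10 on the log2 scale, adjusted p = 0.546). Atp6v1b2 was 77.9 ± 9.09 FPKM in L-proline and 69.6 ± 4.02 FPKM in PBS (0.16 ± 0.10, adjusted p = 0.283). Neither passed, and the 95% interval of the log2 fold change ran from -0.14 to 0.32 for Atp6v1a and from -0.07 to 0.38 for Atp6v1b2.

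Atp6v1d and Atp6v1h came closest to the threshold among the rest of V1. Atp6v1d, which encodes a part of the rotating central stalk, was 55.3, 50.9 and 49.5 FPKM in L-proline libraries, against 41.9, 44.7 and 46.8 FPKM in PBS libraries (0.22 ± 0.08, adjusted p = 0.0792). Atp6v1h, whose product regulates the coupling of V1 with V0, was 18.3, 16.3 and 16.4 FPKM in L-proline libraries, against 14.1, 14.1 and 15.9 FPKM in PBS libraries (0.20 ± 0.08, adjusted p = 0.136). The groups did not overlap for either gene. Atp6v1f, also of the central stalk, averaged 77.2 ± 2.35 FPKM in L-proline and 77.2 ± 5.79 FPKM in PBS (0.0035 ± 0.07, adjusted p = 0.978). Atp6v1c1, whose C subunit leaves the complex when the pump disassembles, averaged 37.1 ± 4.68 FPKM in L-proline and 36.1 ± 0.363 FPKM in PBS (0.03 ± 0.09, adjusted p = 0.825). Over the whole V1 sector the summed level was 520.3 ± 18.7 FPKM in L-proline and 510.3 ± 16.3 FPKM in PBS, so the sector as a sum differed by less than its spread.

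Among V0 genes, which encode the membrane part, Atp6v0b rose. It encodes the c'' subunit of the proton-carrying ring. Atp6v0b was 70.1, 62.1 and 70.4 FPKM in L-proline libraries 1, 2 and 3, against 47.9, 49.1 and 48.3 FPKM in PBS libraries 1, 2 and 3. The PBS libraries lay close together and all L-proline libraries above them. Atp6v0b averaged 67.5 ± 4.68 FPKM in L-proline and 48.4 ± 0.645 FPKM in PBS, 39.4% higher in L-proline, with a log2 fold change of 0.47 ± 0.07 (adjusted p = 0.00439).

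The ring subunit gene Atp6v0c and the small subunit gene Atp6v0e had positive fold changes that missed the threshold. Atp6v0c was 32.2, 34.6 and 33.3 FPKM in L-proline libraries, against 26.2, 29.2 and 29.8 FPKM in PBS libraries (0.23 ± 0.08, adjusted p = 0.0703). Its groups did not overlap, and its 95% interval ran from 0.05 to 0.40. Atp6v0e, the most abundant V0 gene, was 121, 133 and 145 FPKM in L-proline libraries, against 107, 121 and 103 FPKM in PBS libraries (0.27 ± 0.09, adjusted p = 0.0776). L-proline library 1 fell just under PBS library 2. Atp6v0c is known to have pseudogene copies in mouse, so the division of its fragments is uncertain. Atp6v0d1, the subunit that joins the ring to the central stalk, averaged 52.5 ± 4.59 FPKM in L-proline and 53.9 ± 4.68 FPKM in PBS (-0.04 ± 0.09, adjusted p = 0.803). Atp6v0e2, a second e subunit gene, was low, at 0.950, 1.87 and 1.48 FPKM in L-proline libraries and 0.552, 0.971 and 0.950 FPKM in PBS libraries, backed by 38 to 120 fragments (0.41 ± 0.16, adjusted p = 0.115).

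The a subunit forms the path for protons and has several isoforms that direct the pump to different membranes. Tcirg1, which encodes the a3 isoform and lies outside the naming rule, had the highest level of them, at 33.3 ± 2.36 FPKM in L-proline and 25.6 ± 1.89 FPKM in PBS, and it rose (0.37 ± 0.08, adjusted p = 0.0210). Atp6v0a1 followed with 10.9 ± 0.986 FPKM in L-proline and 11.6 ± 1.06 FPKM in PBS (-0.08 ± 0.10, adjusted p = 0.609). Atp6v0a2 was at a similar level, 11.0 ± 1.06 FPKM in L-proline and 9.34 ± 0.942 FPKM in PBS (0.22 ± 0.10, adjusted p = 0.167). The order of Atp6v0a1 and Atp6v0a2 was not resolved beyond their spread in L-proline libraries. Atp6v0a4, known from kidney, had 1, 1 and 0 fragments in L-proline libraries and 7, 4 and 0 in PBS libraries, and a count of 0 still allows up to 3 fragments. Atp6v0d2, known from osteoclasts and macrophages, stood at 0.477 ± 0.268 FPKM in L-proline and 0.435 ± 0.178 FPKM in PBS, and Atp6v1g2, known from neurons, at 0.516 ± 0.364 FPKM in L-proline and 0.552 ± 0.0825 FPKM in PBS. These 3 genes lay under the filter and were not tested.

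Summed over the V0 sector, FPKM was 294, 306 and 331 in L-proline libraries 1, 2 and 3, against 253, 280.4 and 256 in PBS libraries 1, 2 and 3. All L-proline sums lay above all PBS sums, which was not so for V1. Atp6v0e and Atp6v0b held 42.8% and 21.8% of the V0 sum in L-proline, and 41.8% and 18.4% in PBS. Atp6v0a1 and Atp6v0d1 had negative fold changes, and Tcirg1 is not in the sum. The ratio of summed V0 to summed V1 FPKM was 0.598 ± 0.0555 in L-proline and 0.515 ± 0.0132 in PBS, again without overlap, with the highest value, 0.654, in L-proline library 3. The V1 sum includes Atp6v1e1, which fell, while the other 7 tested V1 genes had positive fold changes. The contrast between the sectors and the ratio therefore partly restate the lower Atp6v1e1 level, and sums without that gene were not compared. The sums given here are descriptions and were given no test.

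**Figure D2:**
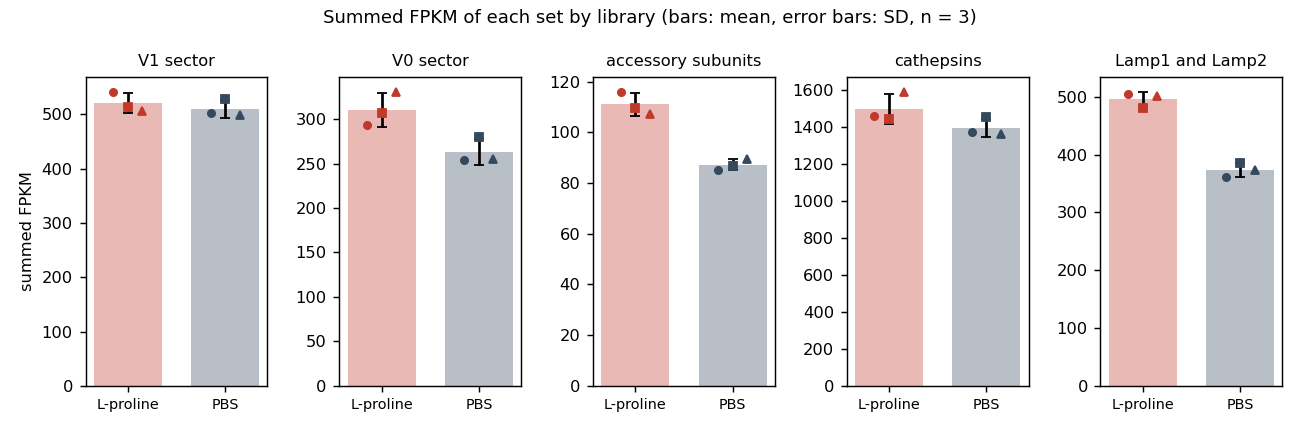
Summed FPKM of all members of the V1 sector, V0 sector, accessory subunits, cathepsins and Lamp genes per library (points), with the mean (bars from 0) and SD (error bars, n = 3), L-proline left of PBS in each panel. The groups are apart for V0, the accessory subunits and Lamp, and overlap for V1 and the cathepsins.

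Of the accessory subunits, Atp6ap1 rose. It encodes Ac45, which helps assemble V0. Atp6ap1 was 64.2, 68.1 and 71.3 FPKM in L-proline libraries 1, 2 and 3, against 49.5, 54.2 and 53.3 FPKM in PBS libraries 1, 2 and 3. No L-proline library overlapped a PBS library. Its means were 67.8 ± 3.58 FPKM in L-proline and 52.3 ± 2.54 FPKM in PBS, 29.6% higher in L-proline (0.37 ± 0.07, adjusted p = 0.0106). The call was lost without PBS 1 (log2 fold change 0.33, adjusted p = 0.0570) and without PBS 3 (0.38, adjusted p = 0.0509), and it held without PBS 2 (0.39, adjusted p = 0.0277).

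Atp6ap2, which encodes the (pro)renin receptor, was 51.8, 41.7 and 36.1 FPKM in L-proline libraries 1, 2 and 3, against 35.8, 32.5 and 36.2 FPKM in PBS libraries 1, 2 and 3. Only L-proline libraries 1 and 2 were above the PBS range. Its fold change of 0.29 ± 0.13 did not pass (adjusted p = 0.142), and it passed without L-proline 3 (adjusted p = 0.0455). The ratio of Atp6ap1 to Atp6ap2 overlapped between groups, at 1.24, 1.63 and 1.98 in L-proline libraries 1, 2 and 3, against 1.38, 1.67 and 1.47 in PBS libraries 1, 2 and 3.

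**Figure D3:**
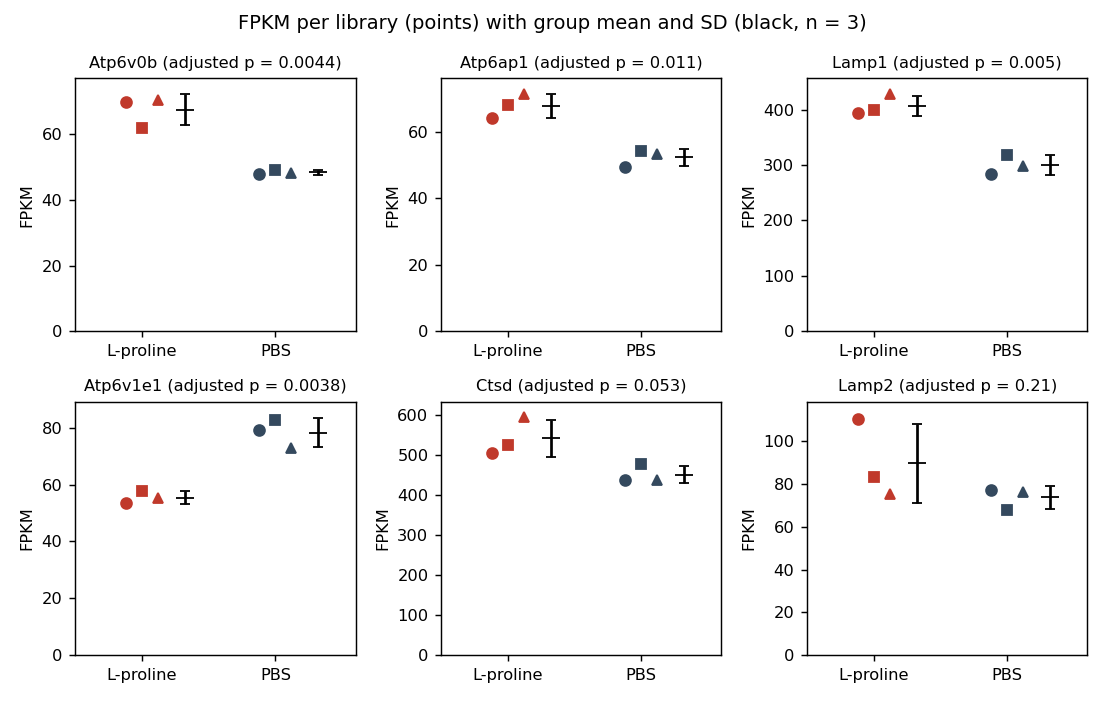
FPKM per library (points, axis from 0) of Atp6v0b, Atp6ap1, Lamp1, Atp6v1e1, Ctsd and Lamp2, with the group mean and SD in black (n = 3), L-proline left of PBS. The groups are apart for the first 5 genes and overlap for Lamp2, where L-proline library 1 stands at 111 FPKM.

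Cathepsins are the main proteases of the lysosome, and none of the 8 tested passed with limma, 1 of them at an unadjusted p under 0.05. Over all genes tested the shares were 19.6% and 35.1%, and whether these 8 genes differ from them was not tested. They were abundant: Ctsd, Ctsb, Ctsl and Ctsz together made up 94.4 ± 0.138% of the summed cathepsin FPKM in L-proline and 94.3 ± 0.150% in PBS. The aspartic protease gene Ctsd was 506, 524 and 593 FPKM in L-proline libraries 1, 2 and 3, against 438, 476 and 438 FPKM in PBS libraries 1, 2 and 3. All L-proline values lay above all PBS values. Ctsd averaged 541 ± 46.1 FPKM in L-proline and 451 ± 22.1 FPKM in PBS, a log2 fold change of 0.26 ± 0.08 that just missed the threshold (adjusted p = 0.0526). It passed under 4 of 15 alternative analyses, among them median-of-ratios scaling (adjusted p = 0.0417) and the fit without L-proline 1 (adjusted p = 0.0294).

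The abundant cysteine cathepsins showed smaller differences. Ctsb, an endopeptidase that also trims dipeptides from the carboxyl end, was 351 ± 23.3 FPKM in L-proline and 355 ± 8.13 FPKM in PBS (-0.019 ± 0.07, adjusted p = 0.866). Ctsl, a strong endopeptidase, was 326 ± 9.39 FPKM in L-proline and 314 ± 11.4 FPKM in PBS (0.05 ± 0.06, adjusted p = 0.563). Ctsz, a carboxypeptidase, was 193 ± 10.9 FPKM in L-proline and 194 ± 11.3 FPKM in PBS (-0.010 ± 0.07, adjusted p = 0.934). The 95% intervals of their log2 fold changes were -0.18 to 0.14 for Ctsb, -0.09 to 0.20 for Ctsl and -0.18 to 0.16 for Ctsz. Ctsz had 9625 fragments or more per library and Ctsl 39569 or more, while the intervals come from the spread between libraries.

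Less abundant cathepsins did not pass either. Ctsa, a serine carboxypeptidase that also protects the sialidase NEU1, was 64.0 ± 3.84 FPKM in L-proline and 59.4 ± 3.74 FPKM in PBS (0.11 ± 0.08, adjusted p = 0.355). Ctsh, an aminopeptidase, was 8.35, 8.61 and 8.37 FPKM in L-proline libraries, against 7.33, 7.95 and 8.09 FPKM in PBS libraries, without overlap but with a small difference (0.10 ± 0.08, adjusted p = 0.365). Ctso and Ctsf, both cysteine proteases, had log2 fold changes of -0.015 ± 0.11 (adjusted p = 0.937) and -0.15 ± 0.09 (adjusted p = 0.265), with Ctsf at 3.93 ± 0.372 FPKM in L-proline and 4.48 ± 0.254 FPKM in PBS. The other 4 cathepsins, known from specialised cells, had few fragments. Ctss, known from antigen-presenting cells, had 16, 21 and 10 fragments in L-proline libraries and 6, 17 and 13 in PBS libraries. Ctsk, the collagen-cutting protease of osteoclasts, had 18, 4 and 10 in L-proline libraries and 6, 8 and 11 in PBS libraries. Ctsw, known from cytotoxic lymphocytes, had 15, 1 and 5 in L-proline libraries and 19, 16 and 10 in PBS libraries. Ctse, an aspartic protease known from stomach and immune cells, had no more than 5 in any library. The 4 genes were under the filter, were not tested, and had too few fragments to show a small difference.

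**Figure D4:**
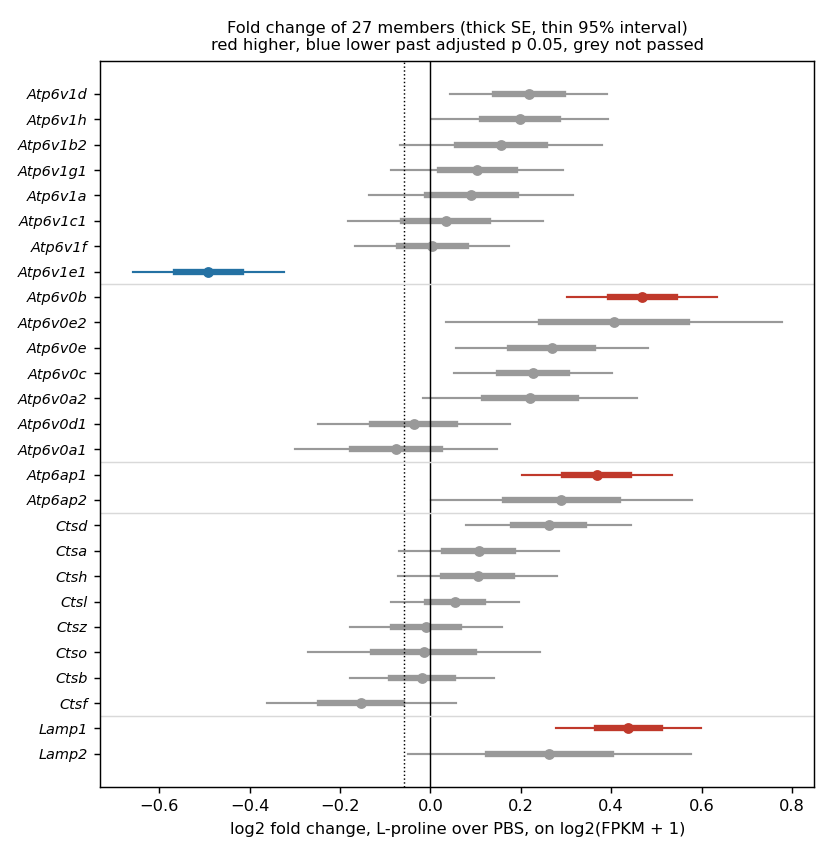
Log2 fold change, L-proline over PBS, of the 27 tested members on the log2(FPKM + 1) scale, with SE (thick) and 95% interval (thin), grouped from top to bottom as V1, V0, accessory subunits, cathepsins and Lamp. Atp6v0b, Atp6ap1 and Lamp1 (red) rose and Atp6v1e1 (blue) fell, and the dotted line marks the median of all genes tested, -0.06.

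Of the Lamp genes, Lamp1 rose and Lamp2 did not pass. Lamp1 was 394, 398 and 427 FPKM in L-proline libraries 1, 2 and 3, against 284, 319 and 298 FPKM in PBS libraries 1, 2 and 3. Each L-proline library lay above the whole PBS range. With means of 406 ± 18.1 FPKM in L-proline and 300.04 ± 17.4 FPKM in PBS, Lamp1 rose by 0.44 ± 0.07 on the log2 scale (adjusted p = 0.00496), 35.5% higher in L-proline. Lamp2, needed for chaperone-mediated autophagy and for fusion of autophagosomes with lysosomes, was 111, 83.3 and 75.3 FPKM in L-proline libraries 1, 2 and 3, against 77.2, 67.7 and 76.3 FPKM in PBS libraries 1, 2 and 3. The groups overlapped, with L-proline library 3 inside the PBS range, and Lamp2 did not pass (0.26 ± 0.14, adjusted p = 0.206). Its 95% interval, -0.05 to 0.58, includes the size of the Lamp1 change, so the 2 genes are not shown to differ.

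The order of libraries within a group differed between members. L-proline library 1 was the highest of its group for 8 of the 27 tested members and the lowest for 13. It was highest for Lamp2 and Atp6ap2, given above, and for Atp6v1a, at 57.3 FPKM against 46.0 and 45.7 FPKM in L-proline libraries 2 and 3, and lowest for Ctsd, Lamp1 and Atp6v0e. L-proline library 3 was highest for 12 members. In the PBS group, library 2 was highest for 14 and library 1 lowest for 13.

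Other lysosome genes were read from lists, beside the 19.6% of all genes tested that passed. In the list of TFEB relatives and the lysosomal arm of mTORC1, 5 of 17 tested genes rose and 0 fell, 29.4%, with a median log2 fold change of 0.08. Flcn, which acts on the Rag GTPases to control TFEB, was 4.79 ± 0.573 FPKM in L-proline and 2.79 ± 0.1305 FPKM in PBS (0.61 ± 0.10, adjusted p = 0.00501). Lamtor1, the lipid-anchored part of the Ragulator scaffold, was 55.3 ± 4.36 FPKM in L-proline and 38.4 ± 4.32 FPKM in PBS (0.52 ± 0.10, adjusted p = 0.00981). The Rag GTPase genes Rragc and Rraga both rose by 0.31 on the log2 scale (adjusted p = 0.0171 and 0.0296). The fifth was Mcoln1, a calcium channel of the lysosome, at 0.30 ± 0.08 (adjusted p = 0.0299), named after its value was seen. Another Rag GTPase gene, Rragd, also named after its value was seen, lay under the filter and was not tested. Rragd was lower in L-proline, at 0.445 ± 0.151 FPKM, against 0.995 ± 0.126 FPKM in PBS. The transcription factor genes themselves did not pass: Tfeb had a log2 fold change of 0.08 (adjusted p = 0.551), Tfe3 -0.14 (adjusted p = 0.237) and Mitf -0.23 (adjusted p = 0.201). The list's 5 and 0 became 4 and 2 under equal sums and 5 and 1 with no filter on low values. Without PBS 1 and without PBS 3, 2 genes rose. Of 9 tested pump assembly factors and pump genes outside the rule, Tcirg1 rose and 0 fell, 11.1%, with a median of -0.16. Tmem199, an assembly factor, had a log2 fold change of 0.20 ± 0.07 (adjusted p = 0.0849), and Ncoa7 and Dmxl1, both known to bind the pump, had -0.58 ± 0.18 (adjusted p = 0.0527) and -0.46 ± 0.21 (adjusted p = 0.160). The Tcirg1 call was lost without L-proline 3, without PBS 1 and without PBS 2. In this list 1 gene fell under quantile normalization, voom, the replicate block and without PBS 2, and 3 fell without L-proline 1.

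Hydrolases other than cathepsins moved both ways: of 34 tested, 5 rose and 8 fell, 38.2% in all, with a median of 0.05. The sialidase gene Neu1 was 11.9 ± 2.07 FPKM in L-proline and 5.26 ± 0.257 FPKM in PBS (1.03 ± 0.12, adjusted p = 0.00157). Aga, which splits asparagine from sugar chains, was 40.9 ± 0.878 FPKM in L-proline and 26.9 ± 1.67 FPKM in PBS (0.59 ± 0.07, adjusted p = 0.00163). Naglu, an enzyme of heparan sulfate breakdown, fell to 11.8 ± 0.242 FPKM in L-proline, against 21.1 ± 1.04 FPKM in PBS (-0.79 ± 0.07, adjusted p = 0.000491). Dnase2a, the lysosomal DNase gene, fell to 14.0 ± 0.338 FPKM in L-proline, against 21.3 ± 0.792 FPKM in PBS (-0.57 ± 0.07, adjusted p = 0.00160). NEU1 works in a complex with the Ctsa and Glb1 products, and among these Neu1 rose, Ctsa did not pass and Glb1, named after its value was seen, fell by 0.39 ± 0.09 on the log2 scale (adjusted p = 0.0204). Without any 1 of the PBS libraries 2 hydrolase genes rose, and 4, 5 and 3 fell without PBS 1, PBS 2 and PBS 3, while 5 fell without L-proline 3.

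Of 15 tested lysosomal membrane proteins other than Lamp1 and Lamp2, 4 rose and 1 fell, 33.3%, with a median of 0.22. The tetraspanin gene Cd63 was 917 ± 72.6 FPKM in L-proline and 642 ± 36.5 FPKM in PBS (0.51 ± 0.08, adjusted p = 0.00449). Laptm4a and the cystine exporter gene Ctns rose by 0.35 ± 0.06 (adjusted p = 0.00543) and 0.44 ± 0.09 (adjusted p = 0.0101) on the log2 scale. The proton leak channel gene Tmem175, named after its value was seen, fell by 0.36 ± 0.08 on the log2 scale (adjusted p = 0.0174). The 4 and 1 became 7 and 0 under quantile normalization and 6 and 1 under median-of-ratios scaling, and 0 fell without PBS 1 and without PBS 3.

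Genes that deliver hydrolases to lysosomes gave 1 rise, Gnptg, among 13 tested (0.52 ± 0.11, adjusted p = 0.0153), with a median of 0.05. This is 7.69%, against 19.6% of all genes tested. Gnptg encodes a subunit of the enzyme that adds the mannose 6-phosphate tag, and the next genes by p, Sort1, Vps29 and Gga2, had adjusted p of 0.0855, 0.264 and 0.267. In the list of cathepsin inhibitors, 2 of 8 tested genes rose and 2 fell, 50% in all, with a median of 0.09, while 7.50% of all genes tested rose and 12.1% fell. The rises include Serpinh1, described below, so the count is not one of protease inhibitors alone. The secreted inhibitor cystatin C gene Cst3 was 626 ± 37.8 FPKM in L-proline and 521 ± 20.2 FPKM in PBS (0.26 ± 0.07, adjusted p = 0.0329), while Cst6 fell to 2.88 ± 0.500 FPKM in L-proline, against 4.71 ± 0.625 FPKM in PBS (-0.56 ± 0.12, adjusted p = 0.0182). Serpinb6b fell (-0.66 ± 0.12, adjusted p = 0.00769), and Serpinh1, which rose (0.48 ± 0.09, adjusted p = 0.00738), is known as a collagen chaperone and not as a protease inhibitor. In the autophagy list 1 of 19 tested genes rose and 1 fell, 10.5%, with a median of -0.02: both encode proteins of the ATG8 family, Gabarap at 0.25 ± 0.06 (adjusted p = 0.0299) and Gabarapl1 at -0.41 ± 0.10 (adjusted p = 0.0266). The next by p were Atg16l1 (adjusted p = 0.0862) and Ulk1 (adjusted p = 0.136). The Gnptg call was lost without PBS 1 and without PBS 3. In the inhibitor list 1 gene rose without L-proline 3, PBS 1 or PBS 3, with no filter and with the replicate block. From the same list 1 fell without PBS 2 or PBS 3, and 0 fell with the filter at 5 FPKM. In the autophagy list 0 genes rose without L-proline 2, L-proline 3 or any 1 of the PBS libraries, and 0 fell without L-proline 2 or any 1 of the PBS libraries and under median-of-ratios scaling.

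**Figure D5:**
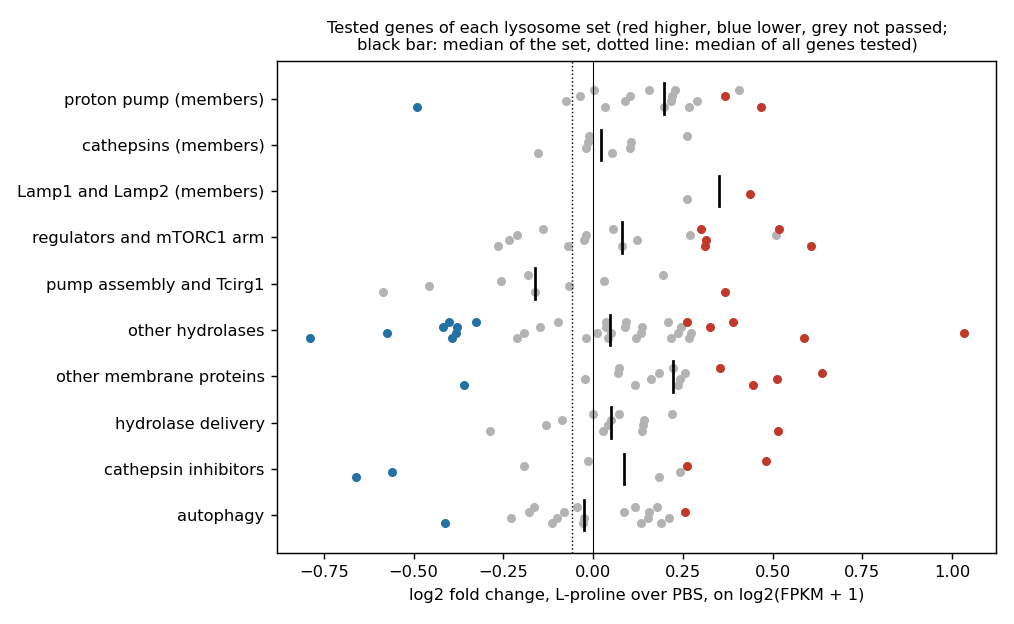
Log2 fold change, L-proline over PBS, of every tested gene in the 3 member sets and 7 other lysosome lists (1 point per gene, red higher, blue lower, grey not passed), with the median of each set as a black bar and the median of all genes tested, -0.06, as a dotted line. The hydrolases other than cathepsins spread furthest, from Naglu at -0.79 to Neu1 at 1.03, while the cathepsins lie between -0.15 and 0.26.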

How the data were processed

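The authors deposited 1 table of FPKM values for 6 libraries, per the file headers. HISAT2, HTSeq 0.13.5 and GRCm39 are listed, without roles, per the submitters' processing notes. FPKM is scaled to gene length and library total, so abundant genes affect the others' values. Whole fragments were recovered for 14407 of 14408 genes: library totals from 13 mitochondrial genes, then the smallest gene length giving whole numbers within 0.01.

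Differences were tested with limma 3.58.1 in R 4.3.3 on log2(FPKM + 1), two-sided, with its trended variance prior, over genes with a mean of at least 1 FPKM. The steps were tested on simulated data. Fold changes on this scale understate changes of low genes. Groups came from the sample titles. Every member is accounted for; of each other list up to 4 tested genes with the smallest p are named, others being marked, and 1 gene of these lists is not reported here. Members and lists were chosen with earlier results of these data known. Promoters were matched by symbol to a RefSeq table of GRCm38.p6, another build than the authors'. Alternatives changed the pseudocount, filter, scaling, variance model, block and libraries.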

Additional observations from a re-analysis of the deposited data

How the results depend on the processing

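Atp6v0b, Lamp1 and Atp6v1e1 passed under all 15 alternatives. Atp6ap1 passed under 13 and missed without PBS 1 and without PBS 3. The cause of the changes below was not tested. Members that rose, 3 as reported, numbered 6 under median-of-ratios scaling and under quantile normalization, and 5 with the replicate block. Pump genes that rose, 2 as reported, numbered 4 under each of these 3 settings. Under median-of-ratios scaling and quantile normalization 1 member fell as well, beside 1969 and 2094 calls over all 10500 genes. The share of members called was then above the share over all genes, unlike in the main fit. It was also above that share without any 1 of the PBS libraries. Ctsd was the 1 cathepsin that passed with median-of-ratios scaling, quantile normalization and a filter at a mean of 5 FPKM. Over the 15 alternatives the adjusted p with limma ran from 0.0168 to 0.182 for Ctsd, 0.00565 to 0.0570 for Atp6ap1 and 0.0455 to 0.2797 for Atp6ap2. The count model on recovered fragments (voom) called 2038 genes and the same 4 members.

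The median log2 fold change of the pump genes was 0.13 with no filter, 0.25 under median-of-ratios scaling and 0.15 under equal sums. That of all members was 0.16 under median-of-ratios scaling and 0.062 under equal sums, and that of the cathepsins was 0.076 under median-of-ratios scaling. Leaving out 1 library in turn gave 874 to 2770 calls over all genes, 2 to 6 members that rose, 1 to 4 pump genes, 0 to 1 cathepsins, and medians of 0.15 to 0.22 for the pump and 0.11 to 0.16 for all members.

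The labels do not say whether same-numbered libraries are paired. Deviations of same-numbered libraries correlated at 0.65, 0.42 and -0.35, and L-proline 3 correlated best with PBS 2 (0.53). With 3 libraries per group, each centred on its own group mean, these correlations cannot decide whether the libraries are paired. With the replicate block 2383 genes passed in place of 2056, and Atp6v0c and Atp6v0e2 joined the pump genes that rose (adjusted p = 0.0488 and 0.0323 with limma, over alternatives 0.0362 to 0.251 for Atp6v0c and 0.0229 to 0.332 for Atp6v0e2).

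Of 402 values of single members, 366 kept direction and side of the threshold, 13 newly passed, 2 no longer passed and 21 changed sign, none of them past the threshold. Under median-of-ratios scaling these were Atp6v0d1 at 0.017, Ctsb at 0.035, Ctso at 0.033 and Ctsz at 0.044. Under quantile normalization they were Atp6v1f at -0.0025, Ctsl at -0.016 and Ctso at 0.089, and under equal sums Atp6v1c1 at -0.013 and Atp6v1f at -0.043. Leaving out 1 library in turn, the log2 fold change spanned 0 for 7 genes: Atp6v0d1 (-0.098 to 0.030), Atp6v1a (-0.015 to 0.14), Atp6v1c1 (-0.063 to 0.11), Atp6v1f (-0.044 to 0.061), Ctsb (-0.055 to 0.036), Ctso (-0.098 to 0.064) and Ctsz (-0.053 to 0.037). The 7 members under the filter were not tested in the main fit, and none of them passed with no filter on low values. Their levels were low, so the lack of a call does not show equal levels.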
